A study of Mus musculus with 6 samples.

Results

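The glycosyltransferases that build and cap the sugar chains of glycoproteins and glycolipids were followed in mouse hematopoietic stem and progenitor cells treated with valproic acid (VPA), an inhibitor of histone deacetylases. The members were all genes whose symbol in the array's annotation starts with 1 of 11 prefixes (B3gal, B3gnt, B3gat, B4gal, Galnt, St3gal, St6gal, St8sia, Mgat, Fut or Gcnt), 81 of 16593 named genes, represented by 124 probes. Each gene is shown by its brightest probe. The cells were isolated from bone marrow of C57Bl/6 mice by the L-S+K+ phenotype (no lineage markers, with Sca-1 and Kit on the surface). They were kept for 24 h in medium with recombinant murine granulocyte/macrophage-colony stimulating factor, murine stem cell factor and fetal calf serum, either with 1 mM VPA (3 cultures) or with the growth factors only (3 control cultures). RNA of each culture was read on 1 single-colour Illumina array. The age of the mice is not given in the sources used here.

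Many chains on proteins begin on asparagine, where a block made in advance is transferred whole and then trimmed and rebranched by the Mgat enzymes. Many others begin on serine or threonine, where a Galnt enzyme adds the first N-acetylgalactosamine (GalNAc). Both kinds, and the chains on ceramide lipids, are lengthened by enzymes that add galactose, N-acetylglucosamine (GlcNAc) or GalNAc, and are closed by sialic acid and fucose. In blood-forming cells the capped ends are known as ligands of selectins, which guide cells into the marrow, and as gangliosides, sialylated lipids of the cell membrane.

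With VPA 3 of the 42 measured glycosyltransferases were higher and 0 lower by limma at adjusted p 0.05. They were B4galnt4, which adds GalNAc to terminal GlcNAc to make the LacdiNAc end, St3gal5, the synthase of the ganglioside GM3, and St6galnac5, which adds a further sialic acid to gangliosides. The 3 rises make 7.14% of the measured members, against 3.41% of the 7967 named genes measured, and the 0 falls stand beside 0.314% (3.73% of genes in either direction). The count is small and is not read as particular to the family. A gene counted as measured when its probe was detected (deposited detection p under 0.05) on at least 3 of the 6 arrays. B4galnt4 and St6galnac5 passed this filter through the VPA arrays alone, so that they had to be higher there to be tested. Among the 39 members detected in both groups St3gal5 was called (adjusted p = 0.0334 by limma), beside 2.26% of genes called higher under that filter.

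Of the 81 genes, 42 were measured (51.9%, against 48% of all named genes), 31 of them on all 6 arrays. By the brightest probe a further 6 were detected on 1 or 2 arrays and 33 on none. Of the 33, B3gat1 had a dimmer probe that was detected on 1 VPA array. All 6 St3gal genes were measured, and 8 of 11 galactosyltransferase genes. Of the St8sia family, which adds sialic acid to sialic acid, 1 of 6 genes was measured, St8sia4, while St8sia1, St8sia2, St8sia3, St8sia5 and St8sia6 were detected on no array. Not measured were also Mgat2, Mgat3, Mgat4a, Mgat4c, Mgat4f and Mgat5b; Galnt3, Galnt4, Galnt7, Galnt9, Galnt13, Galnt18, Galntl5 and Galntl6; Gcnt7; B3gnt2, B3gnt3 and B3gnt6; B3galt1, B3galt2 and B4galt2; B3galnt1, B4galnt2, B4galnt3, B3gat1 and B3gat2; St6gal2, St6galnac1, St6galnac2 and St6galnac3; and Fut1, Fut2, Fut9 and Fut11. Of these, B3gnt3, Galnt3, Galnt18 and Mgat4a were detected on 1 VPA array each, in all 4 cases VPA replicate 1, B4galt2 and Galnt9 on 1 control array each.

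**Figure D1:**
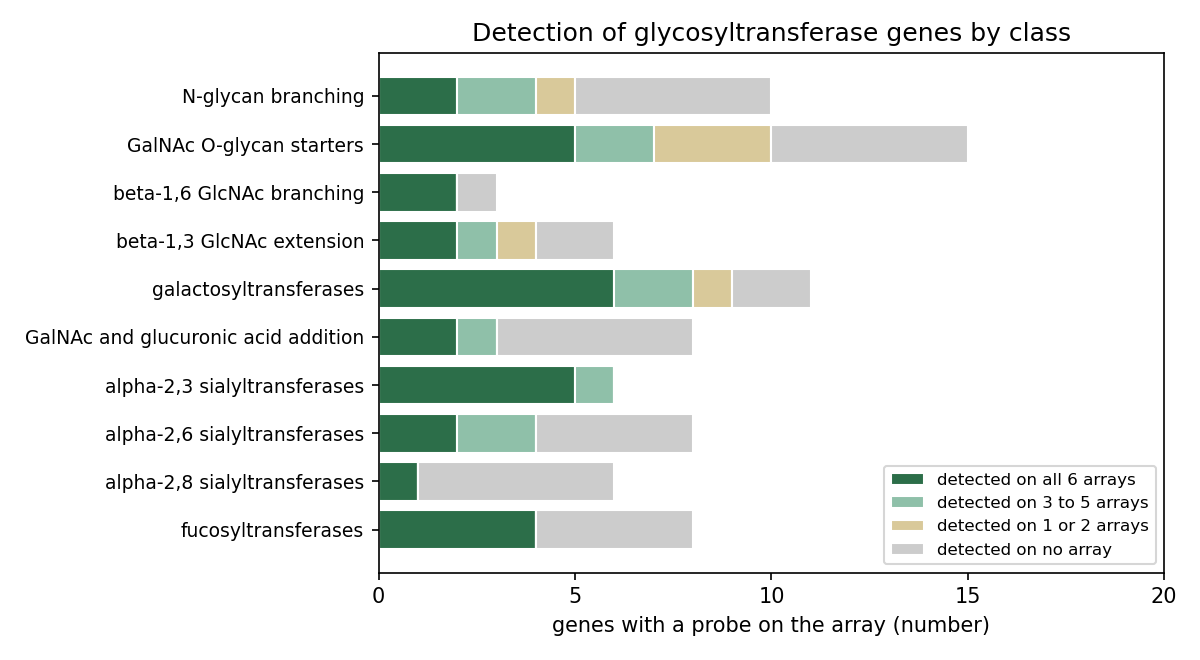
Number of glycosyltransferase genes per class (bars) by the number of arrays on which the brightest probe was detected, over 3 VPA and 3 control arrays. All 6 alpha-2,3 sialyltransferase (St3gal) genes were detected on at least 3 arrays, and 1 of 6 alpha-2,8 (St8sia) genes was.

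VPA replicate 1 was the dimmest array, with a median raw signal of 226 over the kept probes, or 2.37 times that of undetected probes, against 456 to 647 and 3.93 to 4.82 times on the other 5 arrays. It still had the most detected probes, 11439 against 10846 to 11097, and the most detected glycosyltransferases, 42 against 36 to 41. Detection on this array alone is therefore weak evidence of expression. Across probes its normalized values correlated with those of the other VPA arrays at 0.947 and 0.957, while VPA replicates 2 and 3 reached 0.991 and pairs of controls 0.989 to 0.992. Over the measured glycosyltransferases replicates spread with a median standard deviation (SD, log2 scale) of 0.33 in the VPA group and 0.14 in the control group, and of 0.09 for VPA replicates 2 and 3 alone. Of the 42 genes, 10 lay more than 0.5 below both other VPA arrays on replicate 1 and 8 lay more than 0.5 above. Many of the values are therefore also given without this array. Of the stem and progenitor markers, 7 of 10 were measured, among them Cd34, Flt3, Gata2, Meis1 and Tal1, and Hlf and Slamf1 were detected on no array. Procr was detected on 0 VPA arrays and 3 control arrays, at least 1.23-fold lower with VPA (1.19-fold without VPA replicate 1), and did not pass (adjusted p = 0.167 by limma). It passed the detection filter through the control arrays alone, so that it had to be lower with VPA to be tested. The other measured stem and progenitor markers went both ways and did not pass. Their log2 differences were 0.33 (Tal1), 0.09 (Gata2), 0.07 (Meis1), 0.06 (Flt3), -0.18 (Cd34) and -0.55 (Cd48). Ly6a (Sca-1) and Kit were not analysed here.

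The promoters of B4galnt4 and St3gal5, the 2 genes with the largest rises, are shown as the 250 bases before the RefSeq start on build GRCm38.p6, both on the plus strand. Capitals mark GC boxes (GGGCGG) and CCAAT boxes (CCAAT), each searched on both strands. B4galnt4 lies at chr7:141060728-141060977 and St3gal5 at chr6:72097358-72097607.
B4galnt4: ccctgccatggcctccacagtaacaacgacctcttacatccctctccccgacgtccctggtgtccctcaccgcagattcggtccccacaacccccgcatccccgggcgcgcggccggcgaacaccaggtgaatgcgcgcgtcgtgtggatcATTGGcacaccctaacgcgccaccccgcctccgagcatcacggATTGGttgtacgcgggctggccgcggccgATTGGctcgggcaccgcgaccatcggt
St3gal5: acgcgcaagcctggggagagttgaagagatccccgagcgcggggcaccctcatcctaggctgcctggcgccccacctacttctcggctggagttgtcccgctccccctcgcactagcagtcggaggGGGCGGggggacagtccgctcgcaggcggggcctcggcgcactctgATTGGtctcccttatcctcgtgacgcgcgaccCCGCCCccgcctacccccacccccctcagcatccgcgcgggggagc
The B4galnt4 window held 3 CCAAT boxes and 0 GC boxes, and the St3gal5 window 1 CCAAT box and 2 GC boxes, with no overlap between the motifs. Neither held a TATA box (TATAAA). Both windows were rich in G and C, at 67.6% in B4galnt4 and 71.6% in St3gal5, against a median of 57.2% over the 50 windows of measured members and 52.4% over all 32851 windows. A GC box was found in 44% of the windows of measured members and 32.7% of all windows, a CCAAT box in 32% of the members' and 33.8% of all windows, and a TATA box in 2% of the members' and 12.4% of all windows. Of the members that were not measured, 34 windows held a GC box in 55.9% and a CCAAT box in 32.4% of cases. The table of promoters matched 61 of the 81 genes, 33 measured and 28 not measured, some with several starts.

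B4galnt4 was the glycosyltransferase with the largest change. Its normalized log2 signal was 7.34, 7.63 and 7.26 in VPA replicates 1 to 3, against 5.07, 4.74 and 5.0 in control replicates 1 to 3. The groups were far apart, and the probe was detected with VPA on 3 arrays and in control on 0. On the background-corrected scale the rise was at least 3.54-fold, counting the control arrays at no less than their lowest detected signal. The log2 difference of the measured means was 2.48 ± 0.17 (SE, n = 3 per group, adjusted p = 0.000996 by limma). Without VPA replicate 1 it was 2.51 ± 0.16. The raw signals before correction were 147, 296 and 253 with VPA against 153, 108 and 136 in control, so that on the dim array the raw signal did not exceed that of control replicate 1. The log2 difference was 1.07 without background correction and 0.98 in the deposited log2 values, both past the threshold. Both are smaller than the bound, which holds on the background-corrected scale only. The other measured genes that add GalNAc or glucuronic acid did not pass. B3galnt2, which acts on the sugar chain of dystroglycan, was at 5.67, 6.93 and 7.47 with VPA and at 7.22, 7.09 and 7.43 in control. These groups overlapped and the low value was that of VPA replicate 1. The log2 difference of B3galnt2 was -0.56 ± 0.42 (adjusted p = 0.528 by limma), and -0.05 without that array.

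The St3gal enzymes add sialic acid to galactose. St3gal5 was at 9.21, 8.53 and 8.62 in VPA replicates 1 to 3, against 7.0, 7.49 and 7.59 in control replicates 1 to 3. The lowest VPA array lay above the highest control array, and the probe was detected on all 6. St3gal5 was 2.69-fold higher with VPA (log2 change 1.43 ± 0.24 SE, n = 3 per group, adjusted p = 0.0246 by limma). Without VPA replicate 1, the highest of the 3, the log2 change was 1.21 ± 0.19 (adjusted p = 0.0118 by limma). The call ended without control replicate 1 (adjusted p = 0.12), control replicate 2 (0.104), control replicate 3 (0.0817) or VPA replicate 2 (0.0571), with log2 changes of 1.25 to 1.56. A second St3gal5 probe was detected on no array. The remaining 5 St3gal genes had log2 differences of -0.56 to 0.28 and 0 passed. Of them St3gal1, which caps the short core chain on serine and threonine, had the smallest p, with 7.54, 8.13 and 8.29 with VPA and 8.23, 8.25 and 8.46 in control. Its log2 difference was -0.33 ± 0.22 (adjusted p = 0.48 by limma), the groups overlapped, and without VPA replicate 1 the difference was -0.11. St3gal2 and St3gal4, picked after their values were seen, shared this form. St3gal2 had a log2 difference of -0.56 on all arrays and 0.06 without VPA replicate 1, and St3gal4 had -0.46 and -0.06.

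Among the enzymes that place sialic acid in the other orientations, St6galnac5 was at 6.46, 5.91 and 5.95 in VPA replicates 1 to 3, against 5.10, 5.21 and 4.98 in control replicates 1 to 3. The groups did not overlap, and detection was on 3 VPA arrays and 0 control arrays. On the background-corrected scale St6galnac5 was at least 1.44-fold higher. The log2 difference of the measured means was 1.01 ± 0.19 (SE, n = 3 per group, adjusted p = 0.0352 by limma). Its VPA signals were close to the limit of detection, with raw values of 120, 153 and 164 against 155, 131 and 135 in control. Raw values of the groups overlapped. Without background correction the log2 difference was 0.37 (adjusted p = 0.137 by limma) and in the deposited values 0.35 (0.137), so that St6galnac5 did not pass in either. Without VPA replicate 1 it was 0.83 ± 0.12 (adjusted p = 0.00964 by limma), at least 1.27-fold. Leaving out any other array ended the call, with adjusted p of 0.175 (control replicate 1), 0.132 (control replicate 2), 0.161 (control replicate 3), 0.075 (VPA replicate 2) and 0.0587 (VPA replicate 3).

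St6gal1, which puts sialic acid on the ends of N-linked chains, was at 7.66, 7.02 and 7.11 with VPA, against 6.52, 7.24 and 6.99 in control. The groups overlapped and the log2 difference was 0.35 ± 0.25 (adjusted p = 0.512 by limma). It was 0.07 to 0.51 over the alternatives, and 0.15 without VPA replicate 1. St8sia4, which makes polysialic acid, was at 10.40, 10.09 and 9.98 with VPA, against 10.41, 10.51 and 10.45 in control. All 3 VPA arrays lay below the controls, VPA replicate 1 narrowly. Its log2 difference was -0.30 ± 0.16 (adjusted p = 0.395 by limma), or -0.42 without VPA replicate 1 (0.071). On a second probe of St8sia4 the groups overlapped, and the difference was -0.47 with all arrays and -0.06 without VPA replicate 1.

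**Figure D2:**
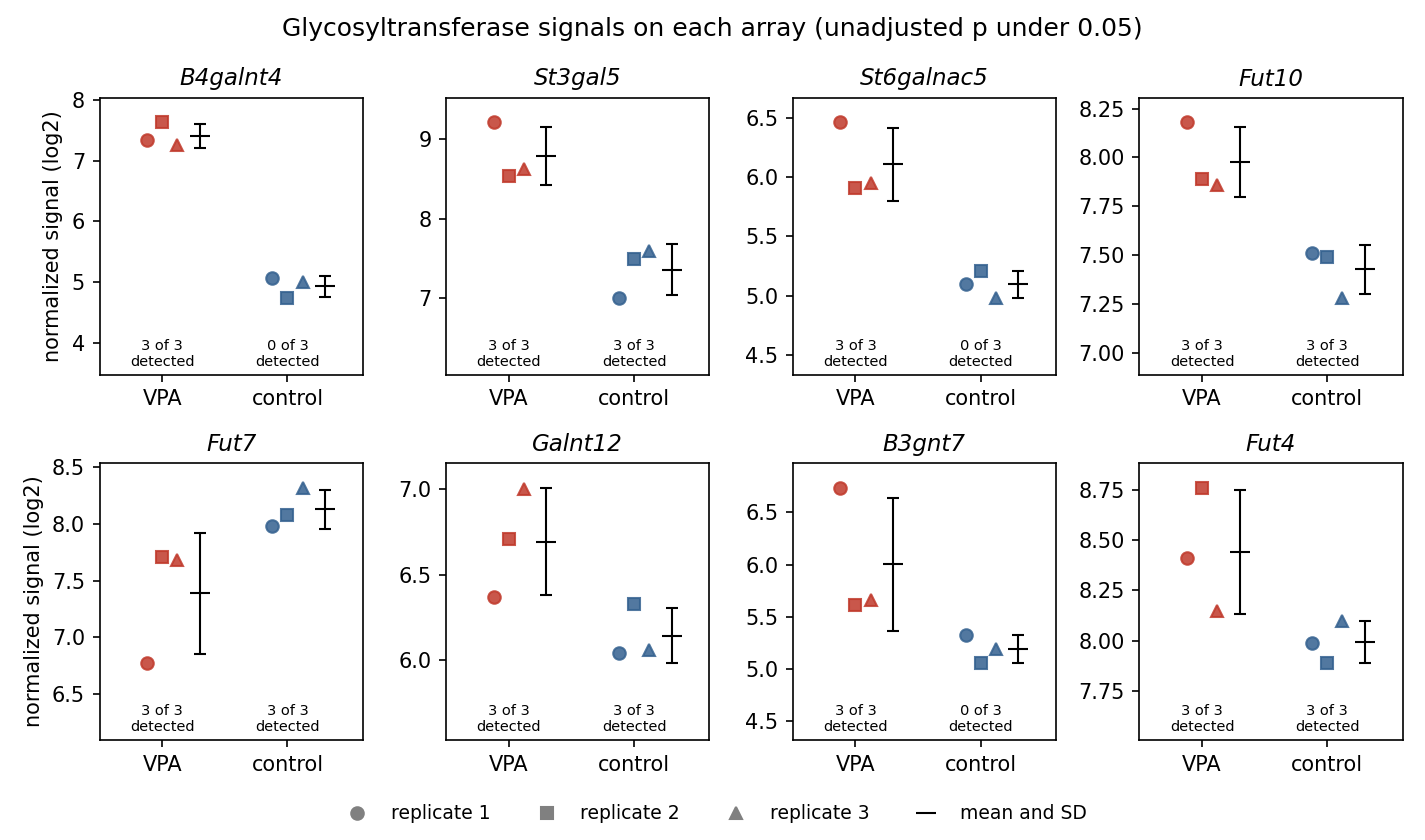
Normalized log2 signal on each array for the 8 glycosyltransferases with an unadjusted p under 0.05, VPA left and control right, with a symbol per replicate and the mean and SD beside them; each panel has its own axis. B4galnt4, St3gal5 and St6galnac5 passed at adjusted p 0.05, and Fut7 is the single gene with lower VPA values.

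At an unadjusted p under 0.05, 7 measured glycosyltransferases were higher (16.7%, against 11.5% of all genes) and 1 was lower (2.38%, against 5.59%). In 10 genes every VPA array lay above every control array and in 3 below (23.8% and 7.14%, against 16.7% and 11.2% of all genes). The median log2 difference over the 42 genes was 0.11, against -0.02 over all named genes measured, and 26 were positive and 16 negative. In 32 genes the difference was less than 0.5 in either direction, and the median SE over the 42 was 0.21. Because members could pass the filter through the group where they were high, these counts are a description. The 42 estimates are plotted with their errors by class.

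**Figure D3:**
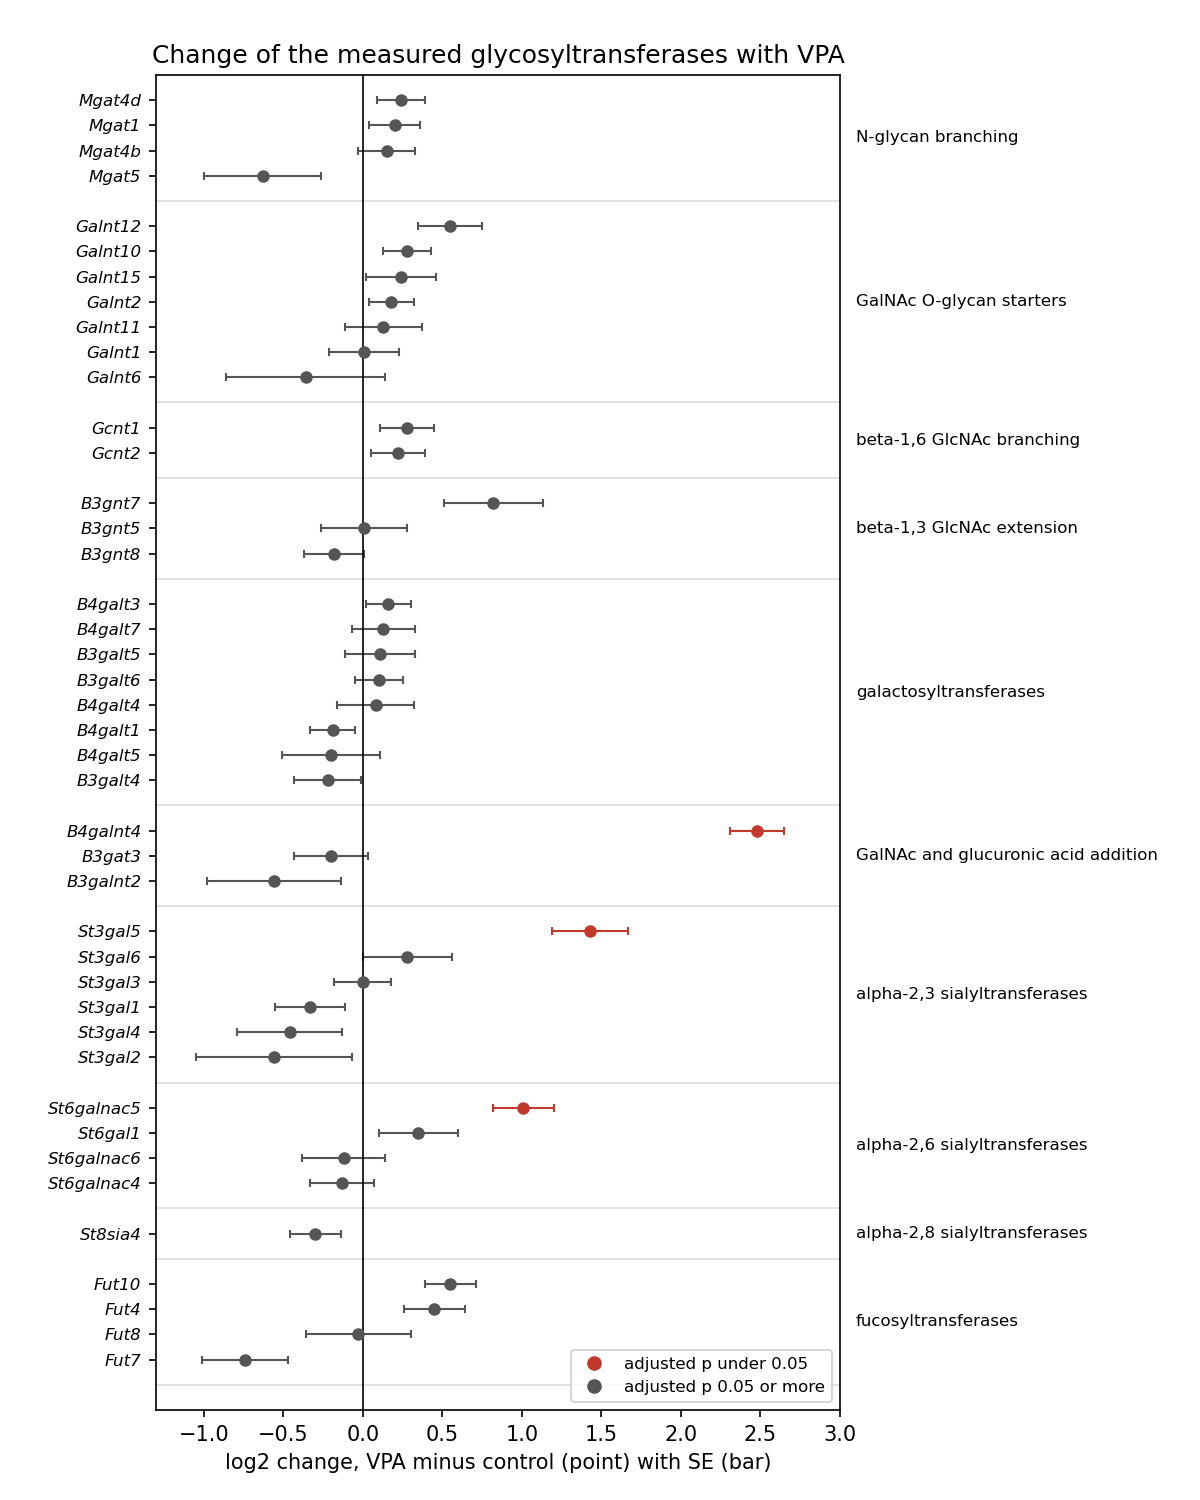
Log2 change (VPA minus control, x axis) with its standard error for the 42 measured glycosyltransferases, grouped by class and ordered within each class. B4galnt4 (2.48), St3gal5 (1.43) and St6galnac5 (1.01) stand to the right, and the others lie between -0.74 and 0.82.

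Fucosyltransferases add fucose, and Fut7 and Fut4 build the fucosylated selectin ligands of leukocytes. Fut7 was at 6.77, 7.71 and 7.68 in VPA replicates 1 to 3, against 7.98, 8.08 and 8.32 in control replicates 1 to 3. All VPA arrays lay below all controls, with the lowest value on VPA replicate 1. The log2 difference of Fut7 was -0.74 ± 0.27 (adjusted p = 0.217 by limma), and -0.44 without that array (0.107), so that it did not pass in either case. Fut4, named here after its values were seen, went the other way, with 8.41, 8.76 and 8.15 with VPA and 7.99, 7.89 and 8.10 in control. The groups of Fut4 did not overlap, though narrowly, and the log2 difference was 0.45 ± 0.19 (adjusted p = 0.287 by limma). Fut10 was at 8.18, 7.89 and 7.86 with VPA, against 7.51, 7.49 and 7.28 in control. Its groups did not overlap and the log2 difference was 0.55 ± 0.16 (adjusted p = 0.139 by limma). A second Fut10 probe gave 0.51. Of the 4 measured fucosyltransferases 0 passed, and the log2 difference of Fut8, the enzyme of core fucose on N-linked chains, was -0.03 with all arrays and 0.37 without VPA replicate 1.

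Galnt enzymes start the GalNAc-linked chains. Of 7 measured, 0 passed with all arrays, and the log2 differences ran from -0.36 to 0.55 with a median of 0.18. Galnt12 was at 6.37, 6.71 and 7.0 with VPA, against 6.04, 6.33 and 6.06 in control. The groups did not overlap, though VPA replicate 1 lay close to control replicate 2. The log2 difference was 0.55 ± 0.20 (adjusted p = 0.217 by limma). Without VPA replicate 1 Galnt12 was higher at 0.72 ± 0.15 (adjusted p = 0.0352 by limma), and the members called were then 4, or 9.52%, all higher, against 6.2% of all genes higher and 1.59% lower. In the deposited values its difference was 0.22. Galnt10 was at 10.08, 9.96 and 9.74 with VPA and 9.67, 9.61 and 9.65 in control, a log2 difference of 0.28 ± 0.15 (adjusted p = 0.394 by limma) that turned to -0.06 with median scaling. That scaling moved the median of all genes to -0.29, so that -0.06 was still above it. Galnt6, picked after its values were seen, was at 5.18, 7.09 and 7.17 with VPA and 6.67, 6.91 and 6.93 in control. VPA replicate 1, where Galnt6 was not detected, alone lay below the controls. The log2 difference was -0.36 with that array and 0.29 without it.

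The measured Gcnt and Mgat genes did not pass. Gcnt1, which makes the core branch on GalNAc-linked chains, was at 10.45, 10.64 and 10.50 with VPA, against 10.30, 10.46 and 10 in control. Gcnt2, the enzyme of the I-type branch, was at 12.22, 11.99 and 11.95 with VPA, against 11.84, 12.02 and 11.64 in control. The groups of both genes overlapped, with log2 differences of 0.28 ± 0.17 (Gcnt1, adjusted p = 0.438 by limma) and 0.22 ± 0.17 (Gcnt2, 0.531), which were -0.06 and -0.04 with median scaling. Of 4 measured Mgat genes the smallest p-values were those of Mgat5 and Mgat4d. Mgat5, which adds the branch that galectins bind through its extensions, was at 4.77, 5.65 and 5.62 with VPA and 5.83, 6.68 and 5.42 in control. It was detected on 2 arrays of each group, the groups overlapped, and the log2 difference was -0.63 ± 0.37 (adjusted p = 0.426 by limma) or -0.34 without VPA replicate 1. Mgat4d was at 5.79, 5.61 and 5.83 with VPA and 5.59, 5.40 and 5.53 in control, with a log2 difference of 0.24 ± 0.15 (adjusted p = 0.446 by limma). Its groups did not overlap, and it was detected on 1 of 3 control arrays.

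Of the enzymes that extend chains with GlcNAc, B3gnt7 was at 6.74, 5.61 and 5.66 in VPA replicates 1 to 3, against 5.32, 5.05 and 5.19 in control replicates 1 to 3. The groups did not overlap and VPA replicate 1 was the high one. The probe was detected with VPA on 3 arrays and in control on 0. B3gnt7 therefore had to be higher with VPA to be tested. The highest detection p with VPA was 0.0464 and the lowest in control 0.0865. Raw signals overlapped, at 127, 141 and 152 with VPA against 167, 125 and 146 in control. On the background-corrected scale B3gnt7 was at least 1.33-fold higher (at least 1.03-fold without VPA replicate 1). It did not pass over all genes (adjusted p = 0.23 by limma). The log2 difference was 0.82 ± 0.31, and 0.45 ± 0.13 without VPA replicate 1 (adjusted p = 0.0815 by limma). Without background correction it was 0.30 (adjusted p = 0.315 by limma). B3gnt8 was at 8.80, 8.37 and 8.46 with VPA and 8.51, 8.71 and 8.96 in control, with overlap and a log2 difference of -0.18 ± 0.19 (adjusted p = 0.64 by limma).

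Of 8 measured galactosyltransferases 0 passed, and the log2 differences ran from -0.22 to 0.16. B4galt1, which adds galactose to GlcNAc ends, was at 9.48, 9.63 and 9.53 with VPA, against 9.73, 9.79 and 9.69 in control. All VPA arrays lay below the controls, by a log2 difference of -0.19 ± 0.14 (adjusted p = 0.507 by limma). B4galt3 was at 9.62, 9.73 and 9.55 with VPA and 9.39, 9.60 and 9.43 in control, where the groups overlapped. Its difference of 0.16 ± 0.14 (adjusted p = 0.594 by limma) was -0.19 with median scaling. B4galt7, B3galt6 and B3gat3 are among the enzymes of the linker on which heparan sulphate is built. They had log2 differences of 0.13 ± 0.20, 0.10 ± 0.15 and -0.20 ± 0.23 and did not pass. VPA replicate 1 was the low array of B3gat3, at 7.07 beside 7.69 and 7.91, and without it the difference of B3gat3 was 0.05.

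Without the dim array the log2 differences of the 42 genes moved by up to 0.65 and 11 changed sign, none of which had passed the threshold. Those of Galnt6, St3gal2 and B3galnt2 moved by more than 0.5. The 3 calls held, and Galnt12 joined them.

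**Figure D4:**
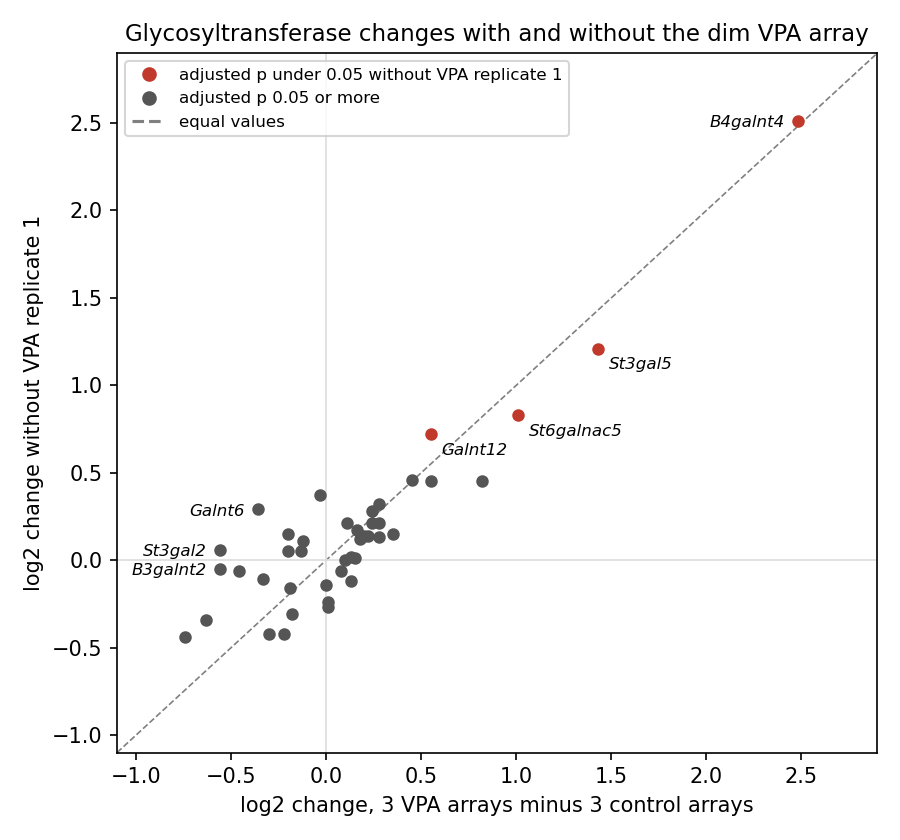
Log2 change of the 42 measured glycosyltransferases with all 6 arrays (x axis) against that without VPA replicate 1 (y axis), with the line of equal values. B4galnt4, St3gal5, St6galnac5 and Galnt12 passed without that array, and Galnt6, St3gal2 and B3galnt2 lay above the line at the left.

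In 13 genes more than 1 probe was measured. Probes of 3 of them, Galnt1, Mgat1 and St6galnac4, gave log2 differences of opposite sign (in Galnt1 0.01 at the highest, in St6galnac4 0.00), and in Mgat1 and B3galt4, picked after their values were seen, they were more than 0.5 apart. The brighter B3galt4 probe had -0.22 and the dimmer -0.85, and without VPA replicate 1 they had -0.42 and -0.35. The brighter Mgat1 probe had 0.20 and the dimmer -0.63, for the enzyme that begins the branching of N-linked chains. On the dimmer probe VPA replicate 1 was at 4.82, below the 5.82 and 6.26 of the other VPA arrays and the 5.87, 6.32 and 6.58 of the control arrays. Without that array the brighter Mgat1 probe had 0.14 and the dimmer -0.22. The dimmer probes of Mgat1 and B3galt4 were detected on 2 of 3 VPA arrays, not on VPA replicate 1. None of the 13 genes had a probe that passed, and B4galnt4 and St6galnac5 are represented by 1 probe each.

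Genes around the transferases were read from 7 further lists, of nucleotide sugar synthesis, nucleotide sugar transport, assembly of the N-linked precursor, its trimming, other glycosyltransferases, glycosidases and lectins. Of 107 measured genes in them 1 rose and 1 fell (3.41% and 0.314% of all genes rose and fell). Pmm1, a phosphomannomutase on the way to GDP-mannose, was at 9.71, 10.22 and 10.01 with VPA, against 8.66, 8.79 and 9.13 in control, 2.18-fold higher (log2 change 1.12 ± 0.20, adjusted p = 0.0279 by limma). The groups did not overlap. Mrc1, the mannose receptor of macrophages, was at 5.31, 6.09 and 5.87 with VPA, against 7.33, 7.15 and 7.76 in control, and 3.15-fold lower (log2 change -1.66 ± 0.25, adjusted p = 0.0166 by limma). It was detected on 2 of 3 VPA arrays, and its groups did not overlap either. VPA replicate 1 was the lowest, and without it the log2 change of Mrc1 was -1.43 ± 0.19 (adjusted p = 0.00715 by limma). Leaving out control replicate 1, 2 or 3 ended both calls, with adjusted p of 0.159, 0.14 and 0.0716 for Pmm1 and of 0.0919, 0.0629 and 0.0817 for Mrc1. That of Pmm1 also ended without VPA replicate 2 (0.0978) or 3 (0.0705), and with median scaling (log2 change 0.76, adjusted p = 0.197). In the lists of nucleotide sugar transport (12 measured), precursor assembly and transfer (28), trimming (12), other glycosyltransferases (15) and glycosidases (9) 0 genes passed by limma. At an unadjusted p under 0.05, 8 of the 107 genes of all 7 lists were higher and 6 lower, against 11.5% and 5.59% of all genes. Of the 8 higher genes 3 were in the glycosidase list, and of the 6 lower genes 3 were in the lectin list (14 measured).

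Markers of other cell types were set beside these results as sums of linear normalized signal over each list. Sums of the 5 mast cell and basophil markers were 280 to 501 in VPA cultures and 612 to 800 in control cultures. Of these 5 markers 3 were measured, Cpa3 fell (log2 change -1.54, adjusted p = 0.00681 by limma), and Ms4a2 and Cma1 were detected on no array. Sums of the 3 B cell markers, 1 of them measured, were 617 to 699 with VPA and 728 to 839 in control, and those of the other lists overlapped between the groups. Within the neutrophil list, whose 9 markers were all measured, 8 had lower means with VPA. In 4 of them every VPA array lay below every control array, as in 11.2% of all genes. These 4 were Mpo (log2 difference -0.81), Prtn3 (-0.75), Camp (-1.37) and Ngp (-1.34), each with an unadjusted p under 0.05. At that level 5.59% of all genes were lower. After adjustment 0 of the 9 markers passed (lowest adjusted p = 0.119 by limma). Of 4 T cell markers 0 were measured and 3 were detected on no array. Epor, of the 3 erythroid markers, was at least 1.45-fold higher, with a log2 difference of the measured means of 0.78 (adjusted p = 0.0299 by limma). It was detected on 3 VPA arrays and 0 control arrays, so that it too had to be higher with VPA to be tested. Whether a shift in cell types has a part in the changes of the glycosyltransferases was not tested, and fewer cells of a type and less RNA per cell cannot be told apart in bulk RNA.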

How the data were processed

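Raw mean signal intensity per probe and a detection p-value per probe and array were deposited by the authors, per the file headers, for 25697 probes on 6 arrays. GenomeStudio is named, without a version, in the submitters' processing notes. A second deposited table holds log2 values with the same median (6.94) in every column. How it was made is not given in the sources used here, and it served as an alternative. The design text of the series describes independent biological triplicates.

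Background correction and normalization used neqc of limma 3.58.1 in R 4.3.3 (offset 16, quantile normalization, log2). The 11115 probes with detection p under 0.05 on at least 3 arrays were fitted with lmFit and eBayes, and p-values were adjusted over all of them by Benjamini-Hochberg at a threshold of 0.05. Where a gene has several probes, the one brightest on average over the 6 arrays stands for it. A gene detected in no array of a group has a bound, for which each array without detection counts as its lowest detected signal, or as the probe's own signal where that is higher. These bounds hold on the background-corrected scale only, and changes without background correction can be smaller. Symbols came from the platform annotation (23978 probes with 1 symbol, 0 with several, 1719 with none). Looked up by Entrez identifier in the RefSeq table of GRCm38.p6, 0 had to be changed. Promoter sequences are from RefSeq. Precision is limited by the number of arrays, and an exact permutation test of 3 against 3 cannot go below 0.1.

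Members and lists were chosen with earlier results of these data known. Named are members past the threshold, with detection on every array in a single group and on 0 in the second, or changed by at least 1 on the log2 scale, and in each class the 2 with the smallest p, with the genes of the other lists past the threshold. Exceptions are marked where they stand. Mgat4f was placed with the N-glycan branching genes by its prefix. The procedure was tested on simulated data. Alternatives were other corrections, scalings, filters and variance models, a replicate block, the deposited values, averaging over the probes of a gene and leaving out each array.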

Additional observations from a re-analysis of the deposited data

How the results depend on the processing

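The call of B4galnt4 held in all 15 alternatives that tested it, that of St3gal5 in 11 of 17 and that of St6galnac5 in 5 of 15. The alternatives are not independent. For St6galnac5 the 5 were median scaling, array weights, averaging over probes, and leaving out VPA replicate 1 before or after normalization. Averaging leaves the signals of B4galnt4 and St6galnac5 unchanged, as each has 1 probe. With a trended and robust variance B4galnt4 and St3gal5 passed and St6galnac5 did not. With all settings as reported, 3 glycosyltransferases, 297 genes of all and 2 genes of the other lists passed. A filter that kept probes detected on all 6 arrays removes B4galnt4 and St6galnac5. It left 1 of 31 glycosyltransferases, 206 of 6843 genes and 1 of 98 genes of the other lists. Without a detection filter 1 of 81 glycosyltransferases and 244 of 16593 genes passed. The 1 was B4galnt4, and St3gal5 did not pass. With detection required in both groups, an alternative chosen after seeing the data, 1 glycosyltransferase and 193 genes passed. Median scaling gave 131 genes and a median of -0.19 over the glycosyltransferases, against -0.29 over all genes. It also turned the differences of B4galt3 (-0.19), Galnt10 (-0.06), Gcnt1 (-0.06) and Gcnt2 (-0.04). Array weights, which gave VPA replicate 1 a weight of 0.09 and VPA replicate 2 one of 13.0, gave 14 glycosyltransferases, 2493 genes and 30 genes of the other lists. Their estimation stopped before its tolerance, and these counts are not relied on. Normalizing the 5 arrays without VPA replicate 1 gave 597 genes and 7 genes of the other lists. With the replicate number as a block, 1 glycosyltransferase and 191 genes passed, and St3gal5 (adjusted p = 0.0528 by limma) and St6galnac5 (0.0603) did not. Deviations from the group means correlated at 0.128, -0.056 and 0.052 between arrays of the same number. Between arrays of different numbers the correlations ran from -0.113 to 0.15. With 3 arrays per group, and VPA replicate 1 dim, these values cannot decide whether the cultures were paired. Leaving out each array in turn gave 1 to 4 glycosyltransferases, 59 to 621 genes and 0 to 7 genes of the other lists, with a median over the glycosyltransferases of 0.04 to 0.16. The 621 genes came without VPA replicate 1 and the 59 without control replicate 1. The causes were not tested. Signal over background limits the 11 measured members detected on fewer than 6 arrays, among them B4galnt4, St6galnac5, B3gnt7, Mgat4d, Mgat5 and Galnt6. Fold sizes depend on the background correction, with log2 changes of 2.48 or 1.07 for B4galnt4 and 1.43 or 0.99 for St3gal5, with or without it.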
